A study of Mus musculus with 6 samples.

Results

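Neuronal cytoskeleton genes encode the proteins that give neurites their tubulin tracks, filaments and growing tips. The 10 genes examined were *Stmn2*, *Stmn3*, *Stmn4*, *Tubb3*, *Dcx*, *Map2*, *Ina*, *Nefl*, *Nefm* and *Gap43*. They were found by their symbols in the platform's annotation, which gave exactly 1 gene symbol to each of 21 probe sets of these genes out of 45037 probe sets other than controls. Each gene was represented by its brightest probe set, so that the genes were 10 of 18194.

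The RNA came from OLV2-1, a mouse embryonic stem cell line in which the fluorescent protein Venus is knocked into the Oct4 (*Pou5f1*) locus, and every group carries this reporter. Undifferentiated cells (ESC) were compared with EpiSC-like cells from day 3, and with Venus-positive cells from day 7 (labelled Day7_Oct4-Venus+), of SFEBq, a serum-free floating aggregate culture that drives stem cells towards neural fates. Each group was measured on 2 arrays that read the 3′ ends of transcripts. ESC were sorted as Venus-positive, with CD31 (Pecam1) added in the sorting protocol, and EpiSC-like cells as Venus-positive without Pecam1. For the day 7 cells the labels name a Venus gate alone, so they are the aggregate cells in which the Oct4 reporter was still visible and not the aggregate as a whole. ESC and day 3 aggregates were taken apart with trypsin and left to recover for 1 hour before antibody staining, whereas EDTA in saline was used at day 7. All cells come from 1 line. The labels do not state that the 2 arrays of a group had cultures of their own, and the p-values therefore cover the spread between arrays, which may be technical. In sorted bulk samples such as these, fewer cells of a type and less RNA per cell cannot be told apart.

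Microtubules are polymers of tubulin dimers that grow and shrink at their ends. Stathmins, the products of the *Stmn* genes, hold free tubulin dimers and favour disassembly, whereas doublecortin (*Dcx*) and Map2 bind along the microtubule and steady it. Neurofilaments, built from Nefl, Nefm and the related alpha-internexin (*Ina*), are the intermediate filaments of axons, and Gap43 is a membrane-bound protein of growth cones. All of these are widely used as markers of young or mature neurons.

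The promoters of 3 of the genes are shown because they come from both sides of the split by ESC signal described next. *Dcx* was below the middle of both ESC arrays, and *Tubb3* and *Ina* were above it. Each window runs from 250 bases before to 50 bases after the transcript start, 5′ to 3′ on the gene's own strand, in RefSeq's GRCm38.p6, with every CG dinucleotide in capitals. The *Dcx* window lies at chrX:143933170-143933469 on the minus strand, that of *Tubb3* at chr8:123411303-123411602 on the plus strand, and that of *Ina* at chr19:47014431-47014730 on the plus strand.
Dcx: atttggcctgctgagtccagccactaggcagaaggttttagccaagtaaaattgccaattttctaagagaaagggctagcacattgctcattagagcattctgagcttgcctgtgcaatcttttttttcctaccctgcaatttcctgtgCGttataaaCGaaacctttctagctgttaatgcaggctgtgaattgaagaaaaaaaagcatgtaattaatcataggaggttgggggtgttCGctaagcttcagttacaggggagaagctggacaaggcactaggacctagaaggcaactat
Tubb3: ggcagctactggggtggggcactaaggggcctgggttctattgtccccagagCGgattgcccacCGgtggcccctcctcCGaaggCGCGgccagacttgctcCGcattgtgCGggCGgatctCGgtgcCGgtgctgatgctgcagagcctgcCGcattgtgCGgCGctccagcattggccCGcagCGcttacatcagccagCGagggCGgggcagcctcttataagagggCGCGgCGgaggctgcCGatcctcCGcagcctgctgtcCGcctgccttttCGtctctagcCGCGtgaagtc
Ina: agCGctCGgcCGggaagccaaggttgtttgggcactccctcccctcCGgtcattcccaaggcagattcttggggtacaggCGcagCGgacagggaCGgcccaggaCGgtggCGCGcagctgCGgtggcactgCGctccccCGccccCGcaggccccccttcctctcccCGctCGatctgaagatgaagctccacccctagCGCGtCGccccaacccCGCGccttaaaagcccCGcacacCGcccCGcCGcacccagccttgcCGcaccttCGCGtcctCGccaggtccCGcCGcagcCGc

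The *Dcx* window held 3 CG dinucleotides and 43.0% G and C bases. The *Tubb3* window held 26 and 67.3%, and the *Ina* window 32 and 71.7%. Across all 32851 promoter windows of this length the median was 7 CG dinucleotides and 52.7% G and C, and 5.4% of windows held no CG. More CG dinucleotides than in 83.1% of windows were found for *Tubb3*, 90.5% for *Ina*, 94.4% for *Map2* (37 of them) and 43.6% for *Stmn3* (6 of them), against 23.3% for *Dcx*. The letters TATAAA, searched on both strands, occurred once in the *Dcx* window and in none of the windows of *Tubb3*, *Ina*, *Map2* and *Stmn3*, while 13.6% of all windows held them. A second *Dcx* window in the table overlaps the one shown and also held 3. These 5 genes were the ones with a window in the RefSeq table, and *Stmn2*, *Stmn4*, *Nefl*, *Nefm* and *Gap43* are named only.

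In ESC, 7 of the 10 genes had a signal above the middle of the array. A gene was counted there when its probe set was at or above the median of all 45037 probe sets on both ESC arrays, a median of 65.0 intensity units on ESC array 1 and 63.9 on ESC array 2. Those 7 genes were *Stmn2*, *Stmn3*, *Tubb3*, *Map2*, *Ina*, *Nefl* and *Nefm*. Of all 18194 genes, each taken by its brightest probe set, 59.3% passed the same rule, so 7 of 10 is read against that share and not against an even split. *Map2* was above through 1 of its 4 probe sets, the other 3 being below on both ESC arrays, and of the 21 probe sets 12 were above, 1 was mixed and 8 were below. *Stmn4* and *Dcx* were below the median on both ESC arrays, and *Gap43* was above it on the first and below it on the second. *Stmn2* stood higher than 98.0% and 98.7% of probe sets on the ESC arrays, *Ina* higher than 86.8% and 91.4%, and *Nefl* higher than 87.6% and 83.0%. *Tubb3*, often used to mark new neurons, was already above 83.4% and 81.7% of probe sets in ESC. At the other end, *Stmn4* was above 17.0% and 20.3%, and *Dcx* above 5.38% and 36.1%. A place among probe sets depends on how each probe set binds, so it ranks no gene's transcript amount against another's, and "below the middle" is no proof of absence. With the split at the 40th percentile *Gap43* joined the genes above it, which made 8 beside 66.1% of all genes, and at the 60th percentile the classes were the same 7, 1 and 2 beside 51.8% of all genes.

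**Figure D1:**
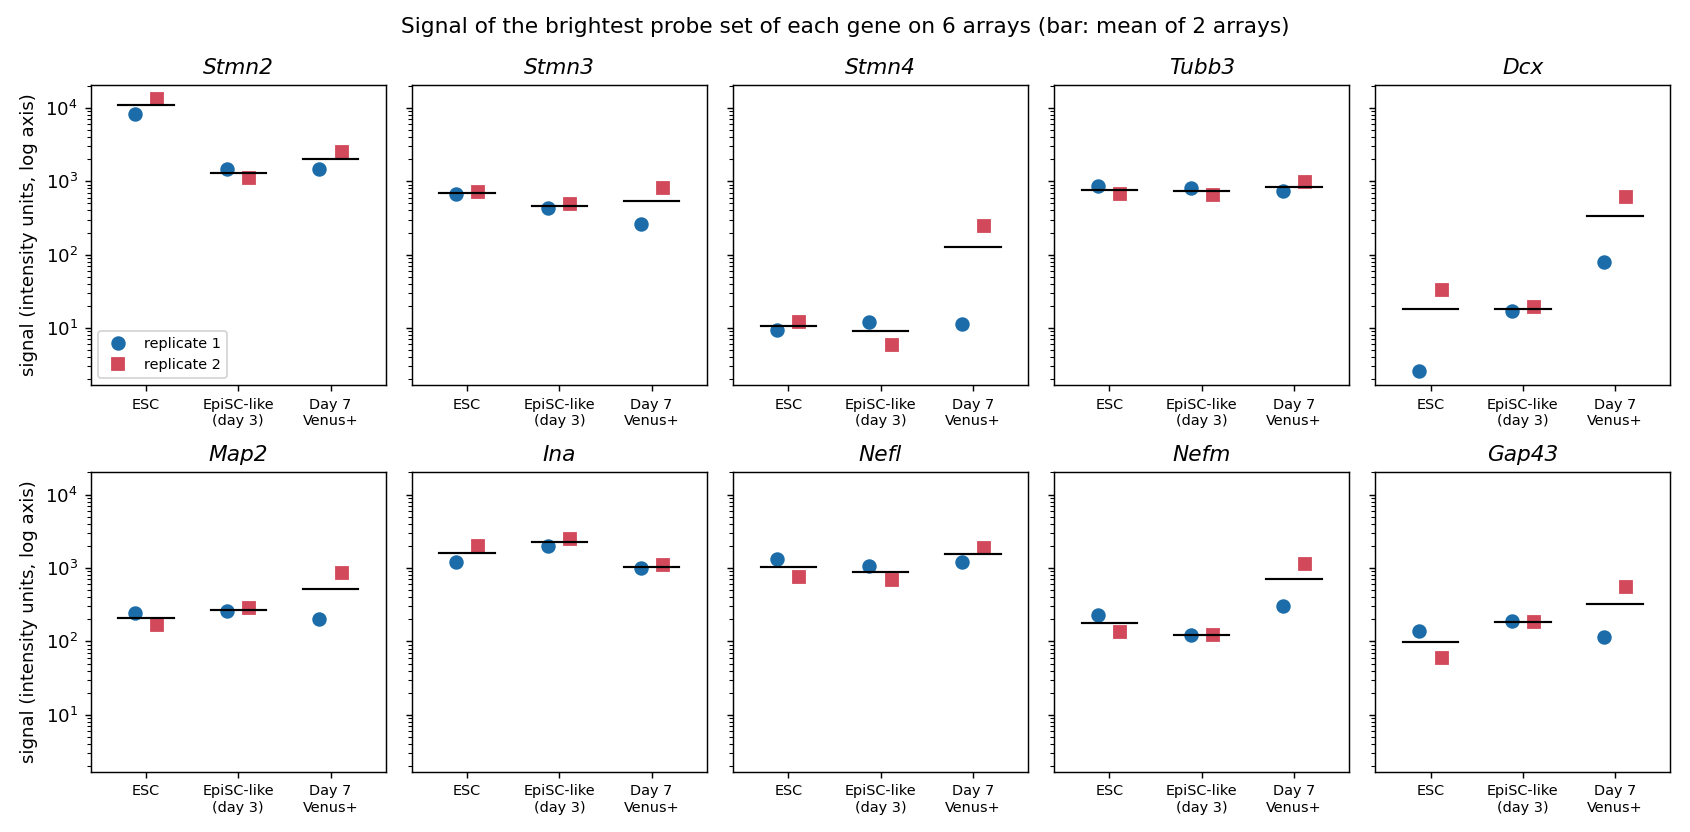
Signal in intensity units, on a log axis, of the brightest probe set of each of the 10 genes on the 6 arrays, with circles for replicate 1, squares for replicate 2 and a bar at the mean of each group of 2. *Stmn2* is highest on both ESC arrays, *Tubb3* lies between 655 and 965 on all 6 arrays, and *Stmn4*, *Dcx*, *Map2*, *Nefm* and *Gap43* are highest on the second day 7 array.

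Of the 10 genes, only *Stmn2* changed past the test, and it fell. *Stmn2* encodes the stathmin known as SCG10, which is attached to membranes and abundant in growing neurites. Its probe set 1423281_at read 8317 and 13364 on the ESC arrays, 1472 and 1116 on the EpiSC-like arrays, and 1459 and 2505 on the day 7 arrays. Both ESC arrays lay above all 4 arrays of differentiating cells, and the EpiSC-like and day 7 ranges overlapped. The mean was 1294 ± 251 in EpiSC-like cells and 10840 ± 3569 in ESC (SD, n = 2 each), a ratio of 0.119. On the log2(signal + 16) scale the difference was −3.02 ± 0.37 (SE), with an adjusted p of 0.0248 by limma. At day 7 the mean was 1982 ± 740, against the same ESC arrays, a ratio of 0.183, and the log2 difference was −2.45 ± 0.37 with an adjusted p of 0.0465 by limma. Day 7 and EpiSC-like cells differed by 0.57 ± 0.37, adjusted p 0.558. Between arrays of the same replicate number the difference at day 3 was −2.49 and −3.56, and at day 7 −2.50 and −2.41.

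The second probe set of *Stmn2*, 1423280_at, showed the same order of groups. It read 3122 and 3962 in ESC, 423 and 369 in EpiSC-like cells, and 505 and 1260 at day 7. Both ESC readings were again the highest, and here the day 7 readings also lay above the EpiSC-like ones. Tested as a probe set, it differed from ESC by −3.10 ± 0.44 at day 3 (adjusted p 0.0589) and −2.12 ± 0.44 at day 7 (adjusted p 0.122). Neither call of *Stmn2* was firm: it was made in 7 of 15 alternative analyses at day 3 and in 6 of 15 at day 7. Both calls were lost when any 1 of the 6 arrays was left out, which leaves 1 array in a group and weakens the test for every gene. The difference then lay between −3.37 and −2.68 at day 3 and between −2.84 and −2.07 at day 7. With the replicate number as a block the adjusted p of *Stmn2* by limma became 0.0536 and 0.0755. That fit called 0 of all genes, with smallest adjusted p of 0.0526 and 0.0668, so it does not single out *Stmn2*. The direction was the same in all 15 alternative analyses of each comparison.

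The background of calls was low. In EpiSC-like cells against ESC, limma called 346 of 18194 genes at an adjusted p under 0.05, or 1.9%, and 1 of the 10 cytoskeleton genes. In day 7 cells against ESC it called 191 genes, or 1.05%, and again 1 of the 10. In day 7 against EpiSC-like cells it called 0 genes, 0%, and 0 of the 10. At an unadjusted p under 0.05 the counts among the 10 were 1, 3 and 3, in an array where 16%, 18.3% and 14.1% of all genes passed in the same comparisons. *Dcx* and *Nefm* passed that level beside *Stmn2* in day 7 against ESC, and *Dcx*, *Nefm* and *Ina* did so in day 7 against EpiSC-like cells. Tested as probe sets, 1 of the 21 (1423281_at of *Stmn2*, adjusted p 0.0487 by limma) was called in EpiSC-like cells against ESC, where 0.286% of 45037 were. None of the 21 was called in day 7 against ESC or against EpiSC-like cells, where 0% of probe sets were. At an unadjusted p under 0.05, 2, 6 and 6 of the 21 passed, beside 11.9%, 15.1% and 11.8% of all probe sets. With 2 arrays a group, readings that do not overlap were common. In EpiSC-like cells against ESC 4549 of 18194 genes lay wholly above and 3610 wholly below, as did 2 and 3 of the 10. In day 7 against ESC 4857 and 4277 did, and 2 and 2 of the 10. In day 7 against EpiSC-like cells 3892 and 4454 did, and 3 and 1 of the 10. The median log2 difference of the 10 genes was −0.08 in EpiSC-like cells against ESC, 0.77 in day 7 against ESC and 0.58 in day 7 against EpiSC-like cells, where all genes had medians of 0.03, 0.02 and −0.02. The first 2 comparisons share the ESC arrays, and the last shares the day 7 arrays with one and the EpiSC-like arrays with the other, so they are not separate evidence.

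**Figure D2:**
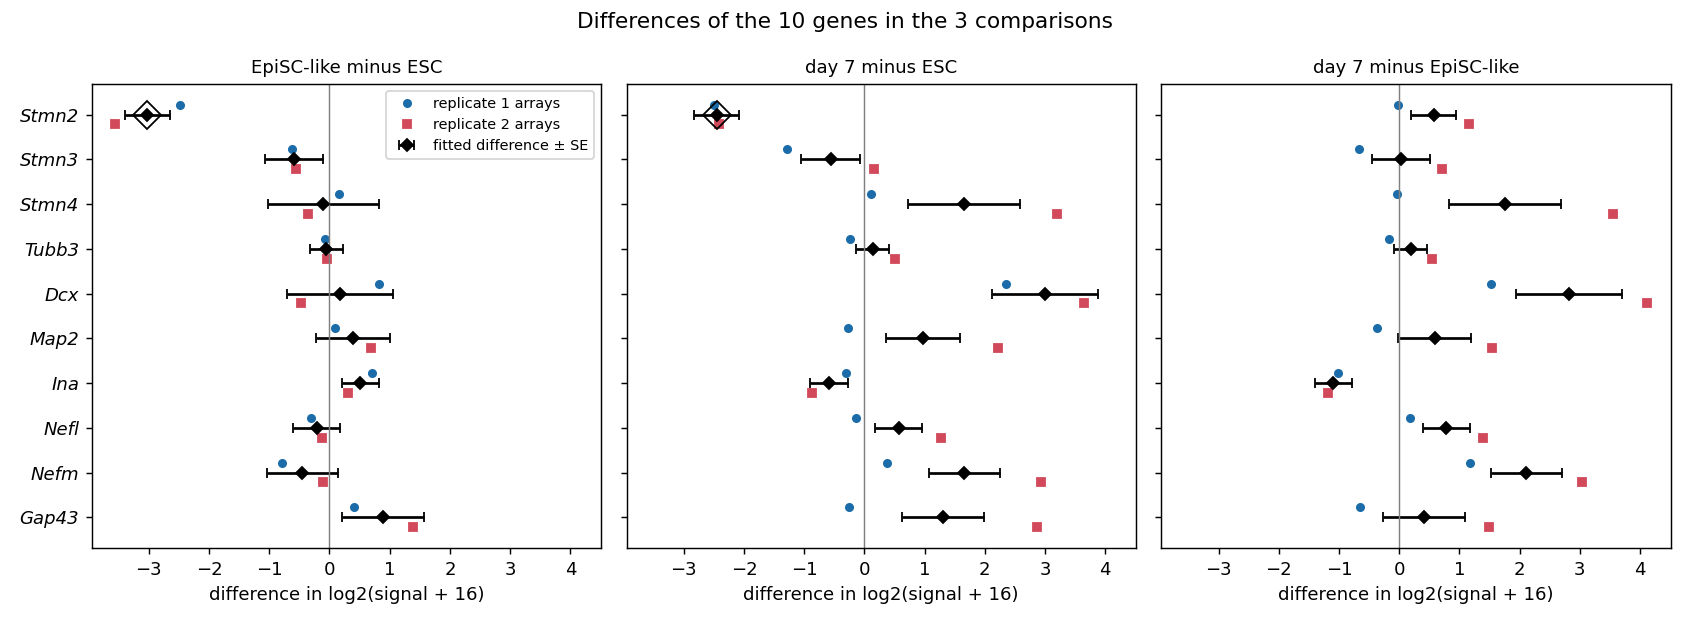
Difference in log2(signal + 16) of each gene in the 3 comparisons, with circles and squares for arrays of the same replicate number, and diamonds with bars for the fitted difference ± SE. The open diamond marks a call at an adjusted p under 0.05, which *Stmn2* alone has at −3.02 and −2.45, while the day 7 panels show the replicate 2 arrays of *Stmn4*, *Map2*, *Nefm* and *Gap43* far to the right of the replicate 1 arrays.

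The other stathmins were not called in any comparison. *Stmn3*, a brain-enriched stathmin, read 669 and 724 in ESC, 429 and 488 in EpiSC-like cells, and 265 and 812 at day 7. Both EpiSC-like readings lay below both ESC readings, but the difference of −0.59 ± 0.49 had an adjusted p of 0.643, and the day 7 readings lay on either side of all others. Its second probe set had 246 and 266 in EpiSC-like cells against 439 and 398 in ESC, also lower on both arrays. *Stmn4*, which in the adult is largely confined to the nervous system, read 9.34 and 12.02 in ESC, 12.2 and 5.95 in EpiSC-like cells, and 11.4 and 242 at day 7. The second day 7 array alone stood out, and the first was within the range of the other groups. Its difference at day 7 was 1.66 ± 0.93 against ESC (adjusted p 0.401) and 1.76 ± 0.93 against EpiSC-like cells (adjusted p 0.463).

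*Dcx* was not called in any comparison, and its day 7 difference depended on which of its probe sets was read. Doublecortin steadies microtubules in migrating young neurons. Its brightest probe set, 1418139_at, read 2.57 and 33.4 in ESC, 16.9 and 19.6 in EpiSC-like cells, and 78.3 and 604 at day 7. Both day 7 arrays were above all 4 others, and the second was far above the first. The mean at day 7 was 341 ± 372, against 18.0 ± 21.8 in ESC and 18.2 ± 1.93 in EpiSC-like cells. The log2 difference was 3.00 ± 0.88 against ESC (p 0.0125, adjusted p 0.154) and 2.82 ± 0.88 against EpiSC-like cells (p 0.0163, adjusted p 0.238).

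The 4 probe sets of *Dcx* disagreed. Probe set 1418141_at went the same way, with 46.5 and 137 at day 7 against 22.1 and 4.05 in ESC. Probe set 1418140_at was lower at day 7, with 3.48 and 4.95 against 35.9 and 30.6 in ESC, and the fourth, 1448974_at, had 21.9 and 1.91 against 18.7 and 21.2. With the mean over the 4 probe sets the day 7 difference was 0.77 against ESC (adjusted p 0.245) and 1.05 against EpiSC-like cells (adjusted p 0.185). All readings of the last 2 were below the array median, all 4 were below it in ESC, and the platform annotation does not say which transcripts each one reads.

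*Tubb3* and *Map2* were not called in any comparison. *Tubb3*, the class III beta-tubulin of neurons, read 857 and 674 in ESC, 818 and 655 in EpiSC-like cells, and 728 and 965 at day 7. The groups overlapped throughout, with log2 differences of −0.05 ± 0.27 in EpiSC-like cells and 0.14 ± 0.27 at day 7, both against ESC (adjusted p 0.96 and 0.835). Day 7 against EpiSC-like cells gave 0.19 ± 0.27. Centring each array on its median turned the day 7 difference of *Tubb3* from ESC to −0.08, so no direction is given for it.

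*Map2*, a microtubule-associated protein of dendrites, read 244 and 169 in ESC, 262 and 282 in EpiSC-like cells, and 200 and 850 at day 7. The second day 7 array was the highest of the 6 and the first lay among the ESC readings. The day 7 difference was 0.98 ± 0.61 against ESC (adjusted p 0.453) and 0.59 ± 0.61 against EpiSC-like cells (adjusted p 0.728). Its other 3 probe sets were dim, between 3.27 and 97.1, and each was highest on the second day 7 array.

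The intermediate filament genes had fitted differences of both signs, none of them called. *Ina*, whose product alpha-internexin appears early in developing neurons, read 1215 and 2017 in ESC, 2000 and 2498 in EpiSC-like cells, and 986 and 1091 at day 7. Both day 7 arrays were below all 4 others, and the EpiSC-like and ESC readings overlapped. Day 7 minus EpiSC-like was −1.10 ± 0.31 (p 0.0106, adjusted p 0.202), and −1.01 and −1.18 between arrays of the same number. The other 2 probe sets of *Ina* gave −1.02 and −1.28, so its 3 probe sets pointed one way, and *Ina* had a negative difference in all 15 alternative analyses, called in 0 of them.

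*Nefm*, the medium neurofilament chain, read 226 and 134 in ESC, 124 and 123 in EpiSC-like cells, and 300 and 1125 at day 7. Both day 7 readings were above all 4 others, the second by far. The difference was 2.11 ± 0.59 against EpiSC-like cells (p 0.0102, adjusted p 0.198) and 1.66 ± 0.59 against ESC (p 0.0282, adjusted p 0.214). *Nefl*, the light chain, read 1320 and 759 in ESC, 1064 and 697 in EpiSC-like cells, and 1203 and 1857 at day 7. The day 7 readings lay above both EpiSC-like readings but overlapped those of ESC, with differences of 0.78 ± 0.39 (adjusted p 0.434) and 0.57 ± 0.39 (adjusted p 0.493).

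*Gap43*, the growth cone protein, read 138 and 60.3 in ESC, 188 and 183 in EpiSC-like cells, and 114 and 543 at day 7. Both EpiSC-like readings were above both ESC readings, and the day 7 arrays lay on either side of the EpiSC-like ones. The difference was 0.90 ± 0.68 in EpiSC-like cells (adjusted p 0.61) and 1.31 ± 0.68 at day 7 (adjusted p 0.368), both against ESC. Set out by ESC signal, the 2 genes below the middle of the ESC arrays had day 7 minus EpiSC-like differences of 2.82 (*Dcx*, or 1.05 with the mean over its probe sets) and 1.76 (*Stmn4*, or 0.14 without the second day 7 array), *Gap43* had 0.42, and the 7 genes above it had values between −1.10 (*Ina*) and 2.11 (*Nefm*). No test was made between classes.

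The 2 day 7 arrays lay far apart in 6 of these genes. Replicate 2 minus replicate 1 at day 7 was 3.23 for *Stmn4*, 2.72 for *Dcx*, 2.11 for *Gap43*, 2.00 for *Map2*, 1.85 for *Nefm* and 1.56 for *Stmn3*. Of the 18194 genes, 3 had a larger day 7 difference than *Stmn4*, 8 than *Dcx*, 54 than *Gap43*, 65 than *Map2*, 113 than *Nefm* and 232 than *Stmn3*. The remaining genes differed less, by 0.77 for *Stmn2*, 0.62 for *Nefl*, 0.40 for *Tubb3* and 0.14 for *Ina*. The median of this difference over the 10 was −0.11 between the ESC arrays, −0.02 between the EpiSC-like arrays and 1.70 between the day 7 arrays, where all genes had 0.01, 0.02 and 0.05. The median day 7 minus ESC difference of the 10 was −0.24 between the replicate 1 arrays and 1.75 between the replicate 2 arrays. Without the second day 7 array the day 7 minus EpiSC-like difference was −0.75 for *Stmn3*, −0.41 for *Map2* and −0.64 for *Gap43*, that of *Stmn4* was 0.14, and those of *Dcx* and *Nefm* were 1.46 and 1.18.

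**Figure D3:**
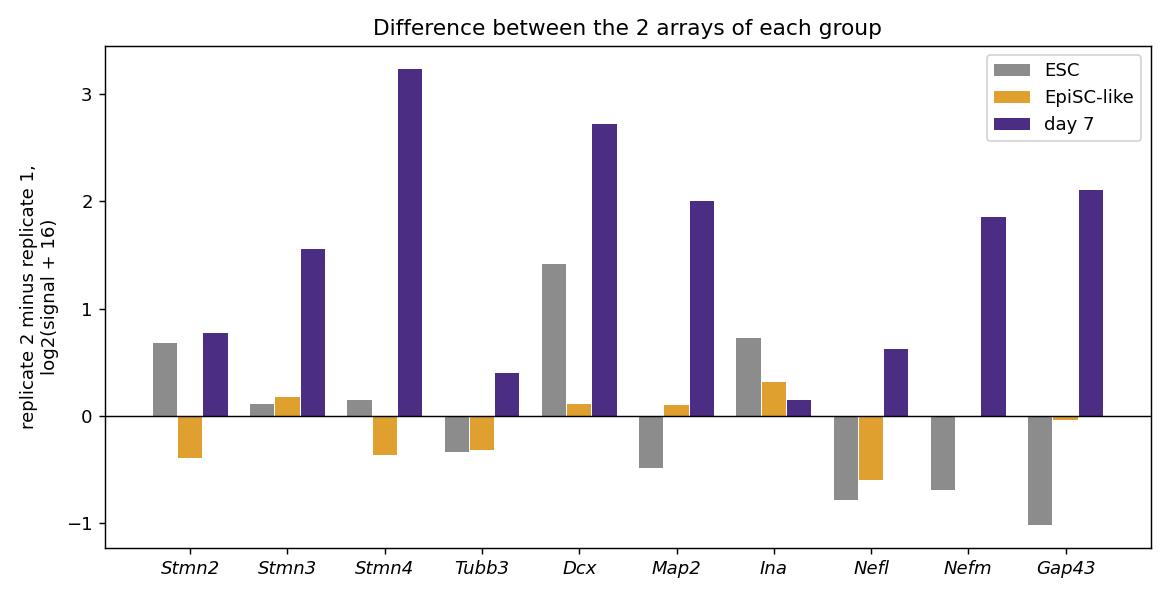
Replicate 2 minus replicate 1 in log2(signal + 16) for each of the 10 genes, with 1 bar per group of 2 arrays, and 0 marking equal readings. The day 7 bars of *Stmn4*, *Dcx*, *Gap43*, *Map2*, *Nefm* and *Stmn3* reach from 1.56 to 3.23, whereas *Ina* and *Tubb3* stay at 0.14 and 0.40.

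Markers of other cell types were read beside these genes. The 13 measured markers of differentiated neurons, which include RNA-binding Elav proteins and synaptic proteins, summed to 1632 and 1087 intensity units in ESC, 1444 and 1253 in EpiSC-like cells, and 2353 and 3983 at day 7. Of the day 7 sums, *Gad1* alone made up 937 and 940, so the higher sum of the first day 7 array rests largely on this gene. At or above the array median were 7 and 6 of the 13 in ESC, 7 and 9 in EpiSC-like cells, and 8 and 13 at day 7. *Slc17a6*, a vesicular glutamate transporter of excitatory neurons, read 24.7 and 258 at day 7, and 7 genes of 18194 differed more between those 2 arrays. *Gad1*, which makes the transmitter GABA, read 260 and 112 in ESC, 39.3 and 24.5 in EpiSC-like cells, and 937 and 940 at day 7, alike on both day 7 arrays. Its log2 difference at day 7 was 4.34 against EpiSC-like cells, the lowest group (adjusted p 0.0522 by limma), and 2.35 against ESC (adjusted p 0.0555 by limma). With the mean over its probe sets the difference from EpiSC-like cells was 3.11 and was called (adjusted p 0.0422 by limma). That difference was called in 6 of 15 alternative analyses. At an unadjusted p under 0.05 by limma 3, 4 and 2 of the 13 passed in EpiSC-like against ESC, day 7 against ESC and day 7 against EpiSC-like cells. Of all genes 16%, 18.3% and 14.1% did. In the main fit 1 of the 13 was called higher in each comparison with ESC, where 1.33% and 0.764% of all genes were. It was *Nsg2*, a vesicle protein of neurons named here after its values were seen. *Nsg2* read 141 and 168 in EpiSC-like cells and 165 and 340 at day 7, against 8.76 and 8.34 in ESC (adjusted p 0.0255 and 0.0291 by limma). Leaving out any 1 array ended the day 7 call of *Nsg2*, and leaving out any 1 ESC or EpiSC-like array ended the other.

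The 6 markers of primitive and visceral endoderm summed to 248 and 149 in ESC, 286 and 189 in EpiSC-like cells, and 487 and 2912 at day 7. At or above the array median were 1 and 0 of the 6 in ESC, 1 and 1 in EpiSC-like cells, and 4 and 5 at day 7. The second day 7 array was the highest of the 6 for the neuron and endoderm sums, and also for those of neural progenitors (25933) and glia (577). It read higher than the first day 7 array for each of the 10 cytoskeleton genes, where the median log2 difference of all genes was 0.05. A reading above 0 is no proof that a marker was present: on ESC array 2 *Afp* read 0.385, *Ttr* 2.85 and *Snap25* 1.94. Markers of glia summed to 257 and 372 in ESC, 323 and 248 in EpiSC-like cells, and 481 and 577 at day 7. *Aldh1l1* alone made up 201 and 275, 195 and 139, and 385 and 407 of these sums. At day 7 against ESC 3 of the 5 glial markers had a positive difference, beside 9353 of all 18194 genes. Neural crest markers summed to 919 and 989 in ESC, 1017 and 1119 in EpiSC-like cells, and 698 and 535 at day 7. *Foxd3* alone made up 541 and 471, 547 and 540, and 305 and 247 of these. In each comparison 0 markers of endoderm, glia or neural crest were called. At an unadjusted p under 0.05 by limma 0, 5 and 3 of the 6 endoderm markers passed in EpiSC-like against ESC, day 7 against ESC and day 7 against EpiSC-like cells, as did 1, 2 and 2 of the 5 glial and 0, 1 and 2 of the 5 neural crest markers. Of all genes 16%, 18.3% and 14.1% passed in the same comparisons. Fibroblast markers summed to 433 and 252 in ESC, 546 and 484 in EpiSC-like cells, and 287 and 212 at day 7, with both EpiSC-like arrays above the other 4. At an unadjusted p under 0.05 by limma 3, 0 and 2 of these 5 passed in the same 3 comparisons. In EpiSC-like cells against ESC 1 of the 5 was called higher, where 1.33% of all genes were. It was *Col1a2*, a collagen chain, which rose to 233 and 218 in EpiSC-like cells, against 27.3 and 67.8 in ESC (adjusted p 0.0476 by limma). It read 49.7 and 43.4 at day 7, and it was not called with centring or quantile normalization.

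Of 8 markers of neural progenitors, 7 had a positive difference in EpiSC-like cells and 6 at day 7, both against ESC. Of all 18194 genes, 9529 and 9353 did. In day 7 against EpiSC-like cells 3 of the 8 had a positive difference, beside 8679 of all genes. The 8 summed to between 20178 and 25933 on the 6 arrays, a sum made up mostly of *Sox2*, a transcription factor shared by pluripotent and neural cells, which alone read 15215 to 22517. In EpiSC-like cells 3 of the 8 were called higher and at day 7 2 were, both against ESC. Of all genes 1.33% and 0.764% were called higher there. At an unadjusted p under 0.05 by limma 4, 4 and 3 of the 8 passed in EpiSC-like against ESC, day 7 against ESC and day 7 against EpiSC-like cells. Of all genes 16%, 18.3% and 14.1% did. *Sox1*, an early transcription factor of the neural plate, rose to 347 and 557 in EpiSC-like cells and 205 and 135 at day 7, against 11.7 and 5.70 in ESC (adjusted p 0.0167 and 0.0291 by limma). *Fabp7*, a fatty acid binding protein of radial glia, rose to 702 and 797 in EpiSC-like cells and 666 and 1511 at day 7, against 25.9 and 8.49 in ESC (adjusted p 0.0172 and 0.0287 by limma). *Prom1*, a membrane protein of progenitor cells, rose to 3163 and 3465 in EpiSC-like cells, against 376 and 336 in ESC (adjusted p 0.0147 by limma), and read 1086 and 879 at day 7 (adjusted p 0.0531). With the mean over its probe sets *Sox1* differed from ESC by 2.15 in EpiSC-like cells, still called, and by 1.42 at day 7, not called, where its brightest probe set gave 4.22 and 2.90 on the log2 scale.

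Of 6 markers of pluripotent cells, 3 fell past the test in EpiSC-like cells against ESC, where 0.572% of all genes were called lower. At an unadjusted p under 0.05 by limma 5 of the 6 passed there and 4 in day 7 against EpiSC-like cells. Of all genes 16% and 14.1% did. The 6 pluripotency markers were at or above the array median on every array, with sums of 53614 and 72136 in ESC, 25423 and 23980 in EpiSC-like cells, and 35466 and 41490 at day 7. *Pou5f1*, the gene of the sorted reporter, read 7927 and 14055 in ESC, 6244 and 9923 in EpiSC-like cells, and 6533 and 9062 at day 7. The 3 called were *Klf4*, *Esrrb* and *Tfcp2l1*, transcription factors of undifferentiated stem cells, with log2 differences of −3.34, −2.08 and −2.98 in EpiSC-like cells (adjusted p 0.046, 0.0395 and 0.0209 by limma), and 0 were called at day 7 against ESC (4 at an unadjusted p under 0.05 by limma, beside 18.3% of all genes). With the mean over probe sets *Esrrb* (−1.44) and *Tfcp2l1* (−0.95) were not called. All called markers are named after their values were seen, and leaving out any 1 array ended the calls of *Col1a2*, *Klf4*, *Esrrb* and *Tfcp2l1* and the day 7 calls of *Sox1* and *Fabp7*. The EpiSC-like calls of *Sox1*, *Fabp7* and *Prom1* ended without ESC array 2 or without either EpiSC-like array. The part of other cells in the values of the 10 genes was not tested.

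**Figure D4:**
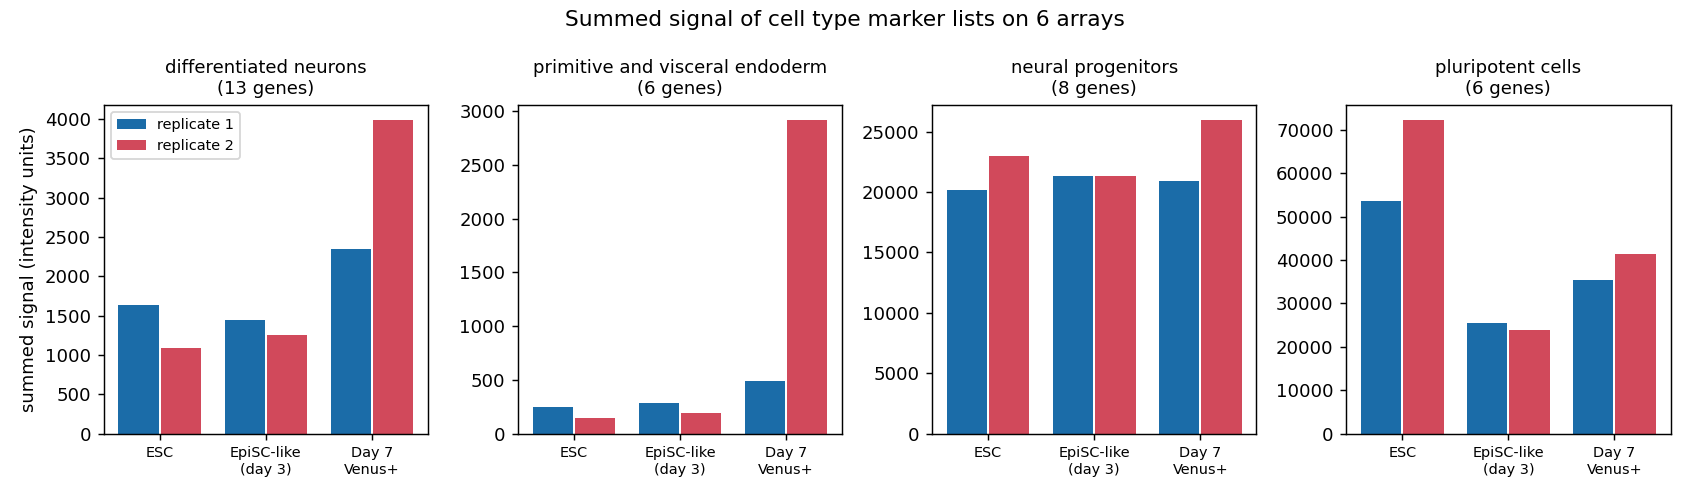
Summed signal in intensity units of the markers of differentiated neurons, of primitive and visceral endoderm, of neural progenitors and of pluripotent cells on the 6 arrays, with 1 bar per array and each axis starting at 0. The neuron sum is 2353 and 3983 at day 7, of which *Gad1* alone gives 937 and 940. The endoderm sum is 487 and 2912 at day 7, and both sums are highest on the second day 7 array, as is that of neural progenitors at 25933.

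The arrays themselves differed in ways the labels do not describe. Arrays numbered 2 reached maximum signals of 63296 to 66643 and those numbered 1 reached 30793 to 36841, and the added poly-A control transcripts averaged 81.3 and 81.8 on ESC array 2 and EpiSC-like array 2, against 682 to 932 on the other 4. The log2 ratio of 3′ to 5′ probe sets of beta-actin, a gauge of RNA length, was 0.51 and 0.53 in ESC, 0.58 and 0.46 in EpiSC-like cells, and 0.71 and 0.94 at day 7. The same ratio for *Gapdh* was 0.005 and −0.297 in ESC, −0.038 and −0.356 in EpiSC-like cells, and −0.115 and −0.185 at day 7, so that day 7 was highest for beta-actin and within the range of the other arrays for *Gapdh*. The part of these differences in the values above was not tested.

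The wider cytoskeleton was read through 7 lists of 89 entries, of which 86 were measured. For every list, counts at an unadjusted p under 0.05 are read against the share of all genes that passed. That share was 16% in EpiSC-like cells against ESC, 18.3% in day 7 against ESC and 14.1% in day 7 against EpiSC-like cells. Calls at an adjusted p under 0.05 are read against 1.9%, 1.05% and 0% of all genes in the same comparisons. Among 14 measured tubulin genes other than *Tubb3*, 0 were called in each comparison (5, 2 and 2 at an unadjusted p under 0.05 by limma), with median differences of 0.17 in EpiSC-like cells and −0.01 at day 7, both against ESC. In EpiSC-like cells against ESC 11 of the 14 had a positive difference, beside 9529 of all 18194 genes. *Tubb6* read 1846 and 2477 in EpiSC-like cells against 989 and 879 in ESC, higher on both arrays (adjusted p 0.0852 by limma). *Tubb2b*, a tubulin of the developing brain, had a negative difference. It read 6999 and 5669 in EpiSC-like cells against 10117 and 9869 in ESC, lower on both arrays (adjusted p 0.258 by limma). Of 19 other microtubule-associated and plus-end proteins, 1 was called lower in EpiSC-like cells and 0 at day 7 (2 and 6 at an unadjusted p under 0.05 by limma), with medians of 0.04 and 0.28 against ESC. *Mapt*, which encodes the axonal protein tau, fell to 28.2 and 21.7 in EpiSC-like cells, against 130 and 140 in ESC, and read 83.2 and 149 at day 7. Its EpiSC-like difference was −1.89 ± 0.30 (adjusted p 0.0433 by limma). With the mean over its probe sets it was −1.08 and not called (adjusted p 0.165). *Stmn1*, the stathmin that most dividing cells use, read 13635 and 20425 in EpiSC-like cells and 14084 and 19833 at day 7, against 14855 and 28414 in ESC, with overlapping groups.

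Of 13 other intermediate filament genes, 1 was called lower in each comparison with ESC and it was *Lmna* (4 and 3 passed at an unadjusted p under 0.05), with list medians of −0.13 in EpiSC-like cells and 0.18 at day 7. Lamin A/C is a filament of the nuclear lamina and not of neurites. *Lmna* fell to 87.3 and 47.2 in EpiSC-like cells and 89.0 and 103 at day 7, against 616 and 706 in ESC (log2 differences −3.06 and −2.59, adjusted p 0.0172 and 0.0291 by limma). With the mean over its probe sets the differences were −1.11 and −1.28 and neither was called. *Nefh*, the heavy neurofilament chain, read 488 and 338 in EpiSC-like cells and 457 and 334 at day 7, against 595 and 288 in ESC, and *Nes*, an intermediate filament of neural progenitors, read 217 and 257 in EpiSC-like cells and 297 and 185 at day 7, against 139 and 157 in ESC (adjusted p 0.363 and 0.321).

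Of 13 growth cone and neurite proteins other than Gap43, 1 was called higher in EpiSC-like cells and 0 at day 7, with medians of 0.60 and 0.15 against ESC. At an unadjusted p under 0.05 by limma 6 of the 13 passed in EpiSC-like cells and 2 at day 7, where 16% and 18.3% of all genes did. *Basp1*, which like *Gap43* encodes a membrane-bound growth cone protein, rose to 13113 and 19939 in EpiSC-like cells, against 5062 and 4332 in ESC (1.78 ± 0.30, adjusted p 0.0462 by limma), and read 5421 and 7135 at day 7. Of 10 kinesin and dynein genes, 1 was called higher in each comparison with ESC (1 and 4 passed at an unadjusted p under 0.05), with list medians of 0.32 in EpiSC-like cells and 0.66 at day 7. *Kif21a*, a kinesin, rose to 574 and 386 in EpiSC-like cells and 607 and 505 at day 7, against 121 and 136 in ESC (1.75 and 1.98, adjusted p 0.0396 and 0.0383 by limma), and with the mean over its probe sets neither was called (1.30 and 1.505). Of 7 tubulin-modifying enzymes 0 were called in each comparison (1, 1 and 1 at an unadjusted p under 0.05 by limma), with medians of 0.14 and 0.15 against ESC. *Rest*, a repressor that keeps neuronal genes off in other cells, read 4451 and 3375 in EpiSC-like cells and 3842 and 3437 at day 7, against 5389 and 5510 in ESC. All 4 readings of this probe set were below those of ESC, with differences of −0.49 (adjusted p 0.4 by limma) and −0.58 (adjusted p 0.275 by limma). With the mean over its probe sets the differences were −0.49 and −0.10, so the day 7 difference depended on the probe set read. Of the 10 genes of *Rest* and its corepressors 0 were called (0, 3 and 0 at an unadjusted p under 0.05 by limma). In day 7 against EpiSC-like cells 0 genes of any list were called (2 to 3 a list at an unadjusted p under 0.05 by limma, except 1 tubulin-modifying enzyme and 0 of the *Rest* list), and list medians lay between −0.34 for tubulins and 0.32 for tubulin-modifying enzymes. Leaving out any 1 array ended the calls of *Mapt*, *Lmna*, *Basp1* and *Kif21a*.

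Among 1810 genes that varied by at least 1 on the log2 scale between group means and whose highest group mean was at or above the median gene, those most like *Stmn2* over the 6 arrays were *Pmel*, *Gtsf1l* and *Xrcc5*, with Pearson r of 0.993, 0.991 and 0.989. *Pmel*, the matrix protein of pigment granules, read 1158 and 1545 in ESC, 126 and 63.8 in EpiSC-like cells, and 125 and 194 at day 7. *Gtsf1l* read 2709 and 3360 in ESC, 1365 and 986 in EpiSC-like cells, and 1193 and 1531 at day 7. All 3 genes were highest on both ESC arrays. *Xrcc5*, a subunit of the Ku complex of DNA end joining, read 2583 and 3415 in ESC, 1433 and 1447 in EpiSC-like cells, and 1507 and 1720 at day 7. The correlations describe 6 arrays of 3 groups, and no test was made on them.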

How the data were processed

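The signal intensities analysed are those the authors deposited, 1 linear value per probe set and array. Affymetrix Expression Console, version 1, is the tool named, per the submitters' processing notes, and what it computed was not given in the sources used here. The trimmed mean (2% removed at each end) of the deposited intensities was about 500.003 on every array, so they had been scaled before deposition. Of 45101 probe sets, 64 controls were left out. A platform annotation gave 1 gene to 34945 probe sets. Each gene took its probe set with the highest mean signal. Differences of log2(signal + 16) were tested with limma 3.58.1 in R 4.3.3, with 3 group means and no block over all 6 arrays, and with Benjamini-Hochberg adjustment over 18194 genes, two-sided, at 0.05. Alternatives changed the pseudocount, the filter on dim probe sets, the scaling, the replicate block, the eBayes settings, the arrays used and the probe sets averaged. The script was tested on simulated data, with changes put into genes at or above the median signal in EpiSC-like cells against ESC. Of 100 changes of 2 on the log2 scale 58 were called, and of 100 changes of 3, 84 were. In the same data 8 unchanged genes were called. A missing call is therefore no proof that a gene did not change. The number of arrays, 2 a group, limits the precision. The 10 genes, the lists and the markers were chosen with earlier results of these data known. The text names all 10 genes, up to 4 called genes of each list and comparison, the 3 genes most like *Stmn2*, and other genes of the lists as values. Scanner files and detection calls were not used here.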

Additional observations from a re-analysis of the deposited data

How the results depend on the processing

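With 2 arrays a group, 3 residual degrees of freedom are left, and differences of dim probe sets depend on the pseudocount. Over all genes, the 346, 191 and 0 calls in EpiSC-like against ESC, day 7 against ESC and day 7 against EpiSC-like cells became 0, 0 and 0 with a pseudocount of 1, 666, 661 and 209 with 64, 645, 518 and 139 at or above the 25th percentile of signal, 748, 857 and 336 at or above the median, 769, 778 and 241 with trend and robust settings, and 0, 0 and 0 with the replicate number as a block, where 3366, 3925 and 3057 passed unadjusted. Centring and the mean over probe sets gave 10 and 8 calls in the last comparison. Leaving out each array in turn gave 0 to 62, 0 to 3 and 0 calls. Of the 10 genes, the 1 call against ESC in EpiSC-like cells and in day 7 cells became 0 with a pseudocount of 1, with the replicate block and without each array (0 to 0), and at day 7 also 0 with the mean over probe sets. In the paired fit, *Stmn2* differed by −3.02 (adjusted p 0.0536) and −2.45 (0.0755), and no call appeared. Deviations of same-numbered arrays correlated at 0.286, 0.077 and 0.094. Without the block 2904, 3338 and 2573 genes passed unadjusted, fewer than with it. The main fit does not treat the numbers as pairs, and whether they mark pairs was not tested. Of the 21 probe sets, the 1 call in EpiSC-like cells became 0 with a pseudocount of 1, centring, quantile normalization, the block and each left-out array (0 to 0), and 2 with a pseudocount of 64, either filter, or trend and robust settings. The 0 at day 7 against ESC became 1 with a pseudocount of 64, and 2 with the median filter or trend and robust settings. For the lists in EpiSC-like cells, the 1 call each of microtubule-associated proteins, intermediate filaments, growth cone proteins and kinesins became 0 with a pseudocount of 1, the block and each left-out array (0 to 0), 0 for all but growth cone proteins with the mean over probe sets, 0 for growth cone proteins and kinesins with centring, and 0 for kinesins with quantile normalization. It became 2 (microtubule-associated proteins) and 3 (growth cone) with trend and robust settings, and 2 and 3 (growth cone) with a pseudocount of 64 and the median filter. Tubulins and tubulin-modifying enzymes gained 1 call with a pseudocount of 64, either filter, or trend and robust settings, and the enzymes 1 with the mean over probe sets. At day 7 against ESC the 1 call of intermediate filaments and of kinesins became 0 with a pseudocount of 1, the block, each left-out array (0 to 0) and the mean over probe sets, and that of kinesins also with centring, but 2 with a pseudocount of 64, either filter, or trend and robust settings. Tubulins there had 1 call with a pseudocount of 64, the 25th percentile filter, centring, trend and robust settings or the mean over probe sets and 2 with the median filter, and microtubule-associated proteins 1 with the median filter or trend and robust settings. In day 7 against EpiSC-like cells, intermediate filaments had 1 call with the median filter, and growth cone proteins 1 with that or trend and robust settings. Leaving out arrays and averaging probe sets were added for the lists after seeing the data, as were all alternatives for single genes of the lists and markers. A pseudocount of 1 and the replicate block ended the calls of all named marker genes, and quantile normalization that of *Klf4*. Signs turned for *Dcx* in EpiSC-like cells with the mean over probe sets (−0.29), for *Tubb3* at day 7 against ESC with centring (−0.081), and for *Stmn3* at day 7 against EpiSC-like cells with centring (−0.038) and the mean over probe sets (−0.017). With arrays left out in turn, differences in EpiSC-like cells against ESC ranged over −0.28 to 0.08 for *Stmn4*, −0.22 to 0.12 for *Tubb3*, −0.53 to 0.88 for *Dcx* and −0.61 to 0.18 for *Nefl*. At day 7 against ESC they ranged over −1.34 to 0.22 for *Stmn3*, −0.061 to 0.337 for *Tubb3* and −0.024 to 1.98 for *Map2*. At day 7 against EpiSC-like cells they ranged over −0.75 to 0.81 for *Stmn3*, −0.007 to 0.391 for *Tubb3*, −0.41 to 1.59 for *Map2* and −0.64 to 1.47 for *Gap43*. The cause of each change was not tested.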
